A study of Homo sapiens with 2 samples.

Results

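Connexins are the membrane proteins of gap junctions. Connexin subunits assemble into a hemichannel in the membrane of each cell, and hemichannels of neighbouring cells dock to form a channel through which ions and small metabolites pass. Connexins are grouped by sequence into subfamilies, of which GJA, GJB and GJC are represented here. Pannexins share the topology of connexins but not their sequence, do not usually form junctions between cells, and release ATP through single-membrane channels. In stratified epithelia such as gingiva and epidermis, GJA1 (CX43) is the abundant connexin of the living layers, and GJB2 (CX26) and GJB6 (CX30) are known for low levels in resting epidermis and high levels in wounded or hyperproliferative epidermis.

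The genes described are 7 connexins (GJB1, GJB2, GJB5, GJB6, GJA1, GJA3 and GJC1) and the pannexin PANX1. They were chosen by name, with earlier results of these arrays known, and every probe set that the platform annotation gave to 1 of the 8 genes alone was taken. This gave 15 of the 54613 probe sets that are not controls. Since the choice was made with the ratios in view, their values are a description and no support for a direction.

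RNA came from Ca9-22, an established line of human gingival squamous carcinoma cells. Cells had been stably transduced with a vector carrying no insert (the empty vector) or with one that expresses RUNX2, a transcription factor of the runt family best known from bone formation, and both kinds had been selected with blasticidin for 2 weeks. The array of the empty vector cells is called the control array, the other the RUNX2-labelled array. With 1 array in each group and no replicates, the precision of every value is limited by the number of arrays, and neither a test nor a p-value is given. The labels do not say whether the cells were a pool or a clone, which promoter drove RUNX2, or whether endogenous RUNX2 remained. The comparison addresses which transcripts differ between the arrays. An effect of RUNX2 cannot be told apart from other differences between the cells or the arrays.

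Levels are intensities in arbitrary units, with those of the RUNX2-labelled array scaled by a factor of 0.966, which makes the 2% trimmed means of both arrays the same. Each array's median served as its floor (55.3 on the control array, 51.8 on the RUNX2-labelled array after scaling). Probe sets above the floor on 1 or both arrays are called measured. Readings under the floor were set to the floor, so that such a ratio is only a lower limit of the difference, given as "at least" or as a bound. All 8 genes were measured, by 14 of their 15 probe sets, of which 12 lay above the floor on both arrays. A gene with several measured probe sets is represented by the brightest on the mean log2 scale. Log2 ratios are RUNX2-labelled array over control array. Levels of different probe sets are not set against each other, because probes differ in brightness.

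The probe sets of RUNX2 itself did not go one way, so all directions below depend on the array labels being right. Of its 6 probe sets, 216994_s_at read 204 on the control array and 854 on the RUNX2-labelled array, 221282_x_at read 102 and 353, and 232231_at read 1746 and 433. The other 3 did not exceed the floor.

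Among the 8 genes, GJB2 and GJB5 read at least 2-fold higher on the RUNX2-labelled array, and 0 of the 8 passed 2-fold downwards. Of all 12729 measured genes, 1.41% passed 2-fold upwards and 1.47% passed it downwards. The median log2 ratio of the 8 genes was 0.49, with GJB6 at its bound, beside -0.06 over all measured genes. By brightest probe sets 5 of the 8 lay above 0, as did 42.6% of all measured genes. GJA3, whose probe sets disagreed in sign, enters as below 0. Because the genes were picked with these ratios known, nothing is read from these counts. Within a gene, log2 ratios of its probe sets spread with an SD of 0.29 (pooled over 6165 genes with at least 2 measured probe sets), which gives a scale for differences within these arrays. It is a spread between probe sets, not a replicate error, and ratios that are bounds enter it. In RNA from whole cultures, a change in the number of expressing cells and a change in RNA per cell cannot be told apart.

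**Figure D1:**
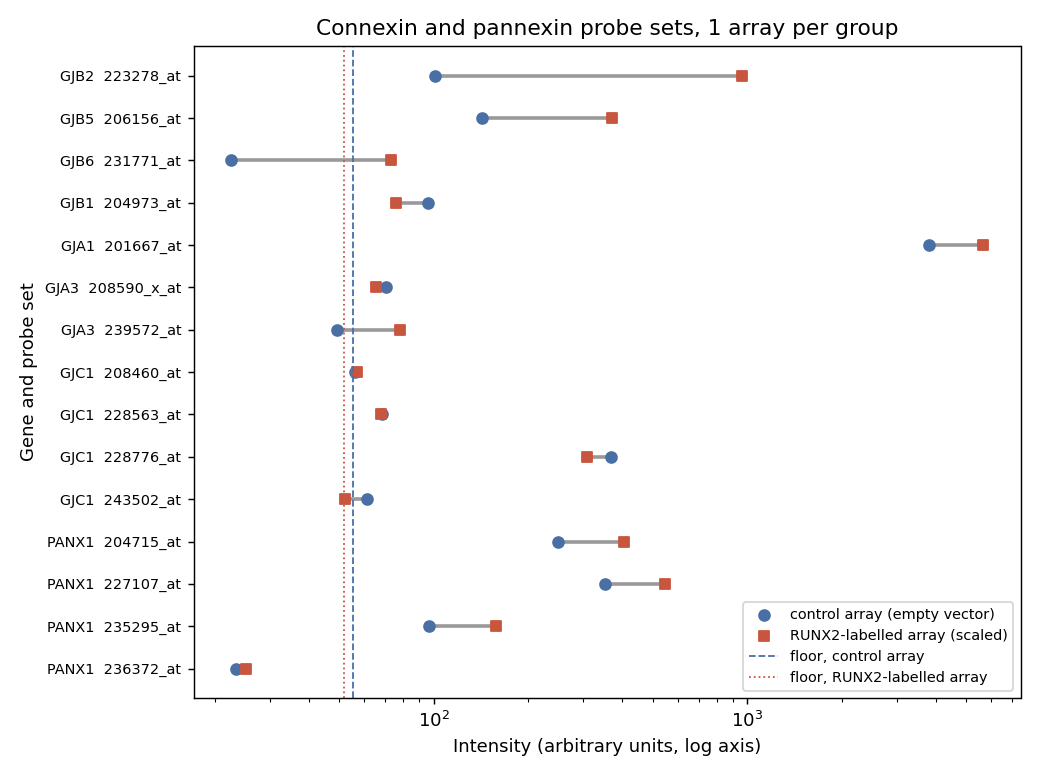
Intensity (log axis, arbitrary units) of each of the 15 probe sets on the control array (circles) and on the scaled RUNX2-labelled array (squares), with the floor of each array as a dashed or dotted line. GJB2 spans the widest interval, from 101 to 962, GJB6 starts at 22.6 under the floor, and the GJC1 pairs lie close together.

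RefSeq promoter sequence (GRCh38.p14) was matched by symbol for 6 of the 8 genes, all but GJB5 and GJC1. The 250 bases before the start were searched on both strands for the core of the RUNX motif (TGTGGT or TGCGGT), the AP-1 motif (TGAGTCA) and the GC box bound by SP1 (GGGCGG). The upstream sequences of GJB2, the gene with the widest ratio, and of GJA1 and PANX1, the other genes with a ratio above 0 and readings above the floor on both arrays for which a sequence was at hand, are shown 5′ to 3′ on the strand of the gene. Capitals mark every match on either strand.
GJB2 (chr13:20192939-20193188, minus strand): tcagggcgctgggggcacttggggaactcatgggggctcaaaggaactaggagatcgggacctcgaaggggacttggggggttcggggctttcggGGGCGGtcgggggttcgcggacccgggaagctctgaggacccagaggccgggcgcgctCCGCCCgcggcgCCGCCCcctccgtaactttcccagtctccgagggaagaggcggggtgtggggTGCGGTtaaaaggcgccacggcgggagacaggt
GJA1 (chr6:121435396-121435645, plus strand): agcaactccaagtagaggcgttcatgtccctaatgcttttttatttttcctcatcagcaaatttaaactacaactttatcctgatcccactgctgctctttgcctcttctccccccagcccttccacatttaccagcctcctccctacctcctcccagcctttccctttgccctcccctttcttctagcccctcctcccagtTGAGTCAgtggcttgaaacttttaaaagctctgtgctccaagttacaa
PANX1 (chr11:94128591-94128840, plus strand): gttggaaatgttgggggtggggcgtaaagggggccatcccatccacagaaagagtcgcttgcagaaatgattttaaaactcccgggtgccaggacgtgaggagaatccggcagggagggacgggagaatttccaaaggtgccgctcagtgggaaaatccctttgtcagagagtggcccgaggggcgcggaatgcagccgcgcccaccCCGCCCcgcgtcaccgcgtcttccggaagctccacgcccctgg

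The GJB2 window held TGCGGT on the strand of the gene, 33 to 28 bases before the start, and 3 GC boxes. Of 35116 RefSeq promoter windows of the same length, 5.84% hold TGCGGT and 16.3% hold at least 1 of the RUNX cores. The GC content of the GJB2 window was 70.0%, beside a mean of 57.2% over all windows. A match of 6 letters is a description of the sequence and no evidence of binding.

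The GJA1 window held the AP-1 motif 48 to 42 bases before the start, as 4.20% of windows do, and no match to either RUNX core. The PANX1 window held 1 GC box, a motif present in 42.6% of windows, and the GJA3 window held 2. The windows of GJB6 and GJB1 matched none of the motifs. TGCGGT and the GC boxes of GJB2 do not overlap.

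GJB2 encodes CX26, a connexin of the beta subfamily found in epithelia and the inner ear. Its level was 101 on the control array and 962 on the RUNX2-labelled array, and both readings were above the floor. The log2 ratio was 3.26, 9.56-fold higher, and ranked 2 from the top among the 12729 measured genes. GJB2, whose upstream window is shown above, had 1 probe set, 223278_at, so no other probe set on these arrays checks the value. With the floor at the 75th percentile of each array the control reading lay under it and GJB2 was at least 4.88-fold higher. Adding an offset to both readings, without a floor, gave a log2 ratio of 2.70.

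GJB5 encodes CX31.1, a connexin of keratinocytes. Its level went from 143 on the control array to 371 on the RUNX2-labelled array, which is 2.60-fold higher with a log2 ratio of 1.38. It ranked 68 from the top. This gene too had a single probe set. When the floor was raised to the 75th percentile of each array, the control reading fell under the floor and GJB5 was at least 1.88-fold higher, short of 2-fold.

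GJB6 encodes CX30, which can form mixed channels with CX26. Its only probe set read 22.6 on the control array, well under the floor of 55.3, and 73.2 on the RUNX2-labelled array. Against the floor it was at least 1.32-fold higher (log2 bound 0.40). Without a floor, or against a floor at the 25th percentile, the readings gave 3.23-fold and a log2 ratio of 1.69, past 2-fold. Whether GJB6 counts with GJB2 and GJB5 therefore turns on how low intensities are treated.

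GJB1 encodes CX32, a connexin known from liver and Schwann cells. It read 95.7 on the control array and 75.9 on the RUNX2-labelled array, a log2 ratio of -0.33. It was the lowest ratio among the 8 genes and the opposite side of 0 from the other 3 beta connexins. The size is close to the spread between probe sets of 0.29.

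GJA1 encodes CX43, the most widely expressed connexin. Its level was 3794 on the control array and 5651 on the RUNX2-labelled array, 1.49-fold higher with a log2 ratio of 0.57. The reading was far above the floor on both arrays, and the difference stayed short of 2-fold. The gene, whose upstream window is shown above, had 1 probe set.

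GJA3 encodes CX46, a connexin of lens fibre cells, and its probe sets disagreed. The brighter one, 208590_x_at, read 70.3 and 65.2, a log2 ratio of -0.11. The other, 239572_at, read 49.2, under the floor, and 78.3, at least 1.42-fold higher (log2 bound 0.50). All these readings were near the floor, and no direction is given for GJA3.

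GJC1 encodes CX45, known from vascular muscle and cardiac conduction tissue. Its brightest probe set, 228776_at, read 367 on the control array and 307 on the RUNX2-labelled array, a log2 ratio of -0.26. The remaining 3 probe sets read between 52.1 and 68.6 on either array, close to the floor, with log2 ratios from -0.23 to 0.02. The SD over the 4 probe sets was 0.14. None of them came near 2-fold.

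PANX1 forms channels that release ATP and can be opened by caspase cleavage. Its 3 measured probe sets gave nearly the same ratio, with an SD of 0.04. The levels went from 353 to 548 in 227107_at, from 249 to 405 in 204715_at and from 96.4 to 158 in 235295_at, which are log2 ratios of 0.64, 0.70 and 0.72. The fourth probe set, 236372_at, read 23.4 and 25.3, under the floor on both arrays. PANX1 was thus 1.55-fold to 1.64-fold higher in its measured probe sets, short of 2-fold in each. Its upstream window is the third shown above.

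Sorted by log2 ratio, the order was GJB2 (3.26), GJB5 (1.38), PANX1 (0.64), GJA1 (0.57), GJB6 (bound 0.40), GJA3 (-0.11), GJC1 (-0.26) and GJB1 (-0.33). GJB2 stood 1.88 above GJB5, and GJB5 stood 0.74 above PANX1. PANX1 and GJA1 differed by 0.06 and GJC1 and GJB1 by 0.08, less than the spread between probe sets of 0.29. The place of GJB6 in the order is not fixed, because its value is a bound.

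**Figure D2:**
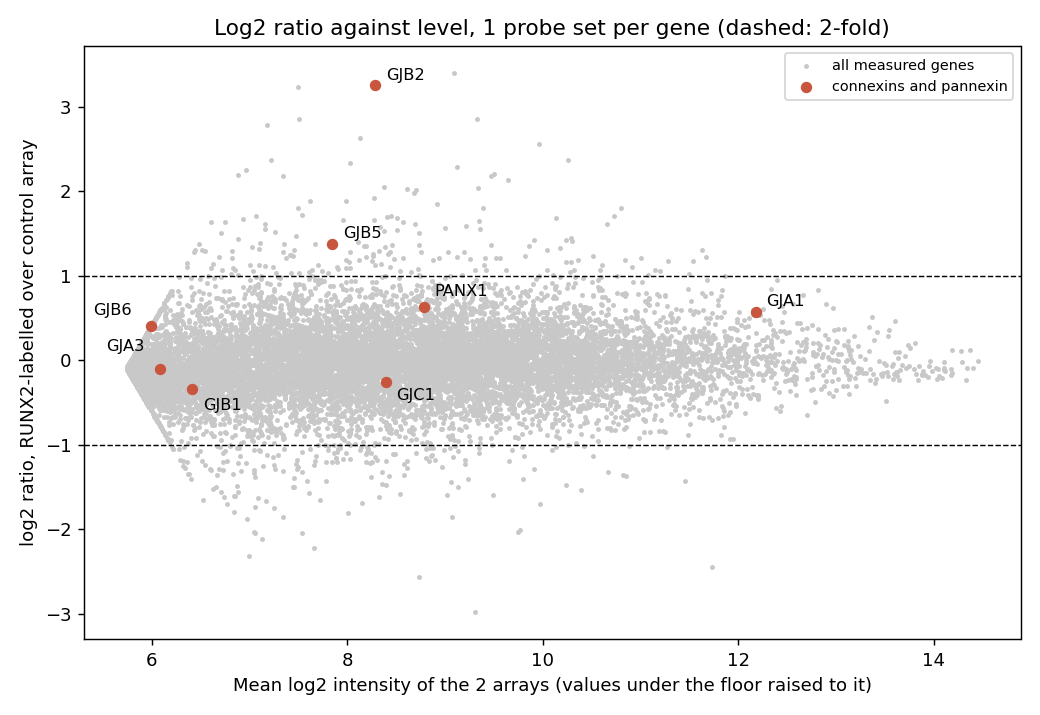
Log2 ratio (RUNX2-labelled over control array) against the mean log2 intensity of both arrays for 12729 measured genes (grey) and the 8 connexin and pannexin genes (red), with dashed lines at 2-fold. GJB2 at 3.26 and GJB5 at 1.38 lie above the upper line, and the other 6 lie between the lines.

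**Figure D3:**
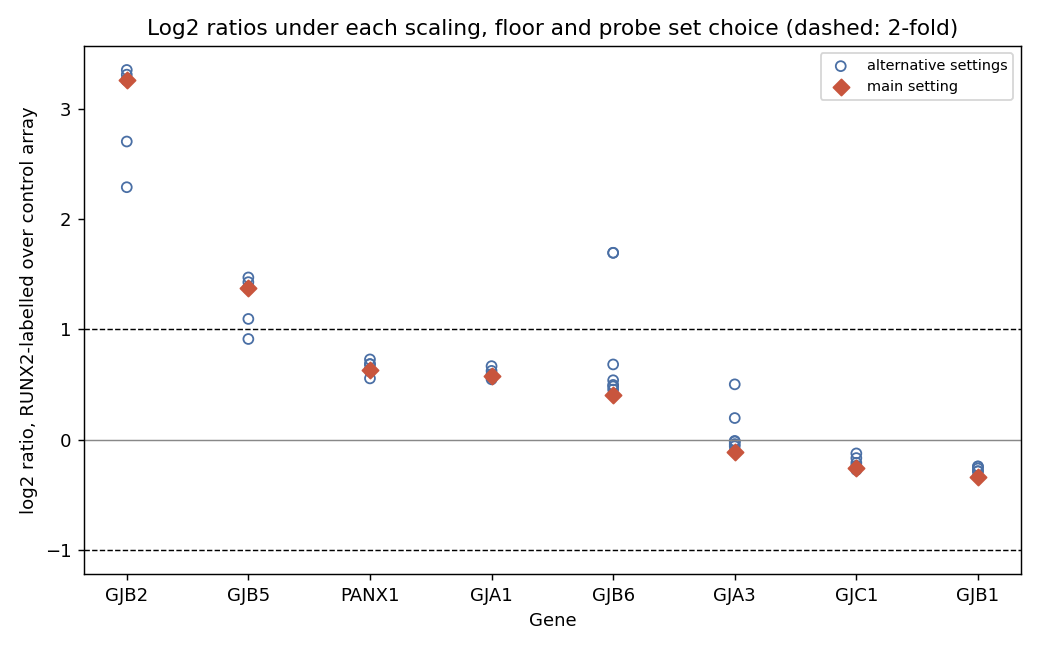
Log2 ratio of each gene under the main setting (diamonds) and under the other scalings, floors and probe set rules (open circles), with dashed lines at 2-fold. The lowest circles of GJB2 (2.29) and GJB5 (0.91, short of 2-fold) are bounds from the floor at the 75th percentile, GJB2 otherwise lies between 2.70 and 3.35, and GJB6 reaches 1.69 where low readings are not raised.

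Genes of the same chromosomal neighbourhoods were looked at after the ratios were known. In the RefSeq gene order of GRCh38.p14, GJA3, GJB2 and GJB6 are consecutive protein-coding genes on chromosome 13, and GJB5 and GJA4 lie close together on chromosome 1. Within the chromosome 13 cluster, GJB2 had 3.26 and GJB6 a bound of 0.40. GJA3 had -0.11 in its brighter probe set and a bound of 0.50 in the other. Of the 4 protein-coding genes on each side of this cluster, 7 of 8 were measured and 0 differed by 2-fold. Over all measured genes, 1.41% passed 2-fold upwards and 1.47% downwards. CRYL1, the next gene after GJB6, had a log2 ratio of -0.50, and ZMYM2, next to GJA3, had 0.07. The widest ratio among the flanking genes was 0.77, in PSPC1.

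On chromosome 1, GJB5 was measured and GJA4 (CX37), an endothelial connexin, lay under the floor in both its probe sets. Of the 6 flanking genes analysed there, 3 were measured and had log2 ratios from -0.52 in C1orf94 to 0.20 in ZMYM6.

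**Figure D4:**
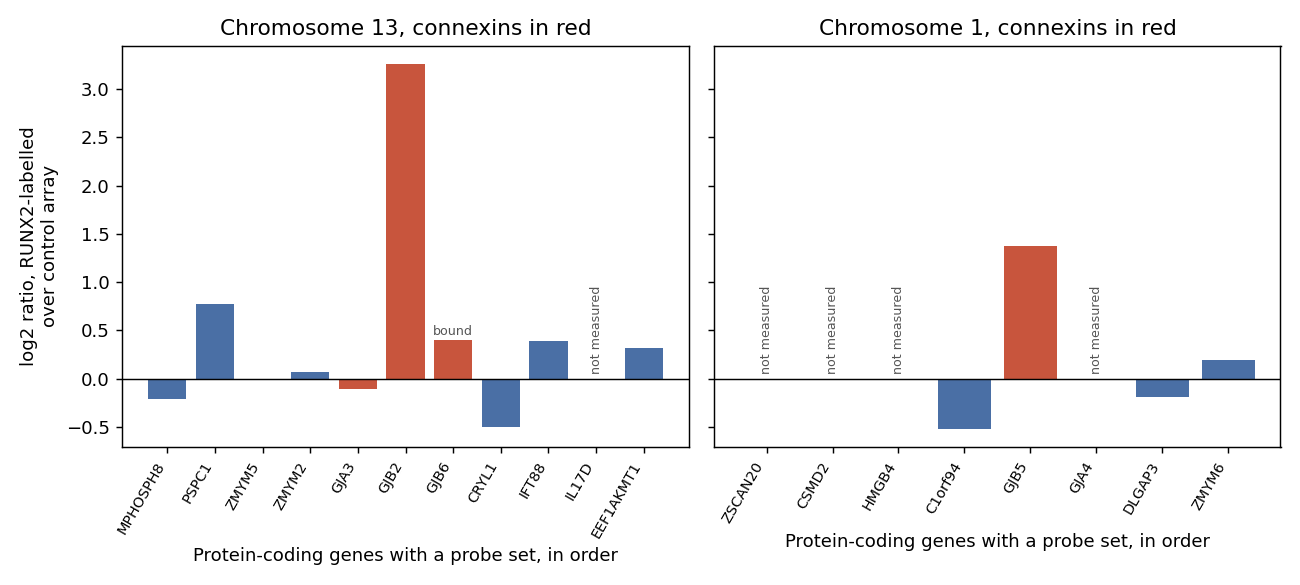
Log2 ratios (bars) of connexins (red) and of flanking protein-coding genes with a probe set (blue) in RefSeq order on chromosomes 13 and 1. GJB2 at 3.26 and GJB5 at 1.38 stand above their flanking genes, which run from -0.52 to 0.77. The bar of GJB6 is a bound.

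Of 8 other connexins and pannexins analysed, PANX2 was the 1 measured. The brightest probe set of PANX2, a pannexin known from brain, read 99.3 and 103, and log2 ratios over its 3 probe sets ran from -0.12 to 0.05. GJA4, GJA5, GJA10, GJD2, GJD3, GJD4 and PANX3 lay under the floor on both arrays in all their probe sets.

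Genes that bind connexins, move them to the membrane or degrade them showed 0 members past 2-fold in either direction among 18 measured of 20 listed. Of all measured genes, 1.41% passed 2-fold upwards and 1.47% downwards, so 0 of 18 is near those shares. The median log2 ratio was -0.03, beside -0.06 over all measured genes, with 9 above and 9 below 0. TRIM21, a ubiquitin ligase, had the highest ratio at 0.59 (from 105 to 158). STAMBP, a deubiquitinase that acts on CX43, had 0.43 in its brightest probe set and from 0.02 to 0.83 over 3. DLG1, a scaffold protein, had the lowest at -0.42, with up to 0.20 over 5 probe sets, and ERP29, a chaperone of CX43 assembly, had -0.37. TJP1 (ZO-1), which binds the tail of CX43, read 2668 and 2504.

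Among 11 measured of 12 listed kinases that phosphorylate connexins, 1 was at least 2-fold lower and 0 at least 2-fold higher, beside 1.47% and 1.41% of all measured genes. The median log2 ratio was -0.07, beside -0.06 over all measured genes. PRKCA, protein kinase C alpha, which phosphorylates CX43, went from 1215 to 532 in 213093_at, 2.28-fold lower. Its other measured probe set had a log2 ratio of -0.30, and with the mean over probe sets PRKCA did not reach 2-fold. CSNK1E had 0.75, with 0.39 in another probe set. CDK1 had -0.36 in its brightest probe set, with up to 0.07 over 3. CSNK1D had -0.34, with 0.31 in another probe set.

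Genes of ATP release and purinergic signalling act beside or downstream of pannexin channels, and 10 of 16 listed genes were measured. Their median log2 ratio was -0.18, beside -0.06 over all measured genes. By their brightest probe sets 0 passed 2-fold in either direction, beside 1.41% upwards and 1.47% downwards of all measured genes. NT5E, which makes adenosine from AMP, had 0.28 in the brightest of 3 probe sets, and another of them, at 1.11, was past 2-fold. The adenosine receptor ADORA2B had 0.68 (from 478 to 768) and ENTPD3, an enzyme that degrades extracellular ATP, had 0.65 (from 226 to 355). ENTPD2 had -0.61 and the ATP-gated channel P2RX4 had -0.55, from 396 to 271. The receptor P2RX7, often described with PANX1, was under the floor on both arrays.

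Of 8 listed transcription factors known from connexin promoters, 6 were measured, 1 passed 2-fold upwards and 0 downwards, beside 1.41% and 1.47% of all measured genes. The median log2 ratio was 0.18, beside -0.06 over all measured genes. FOS, an AP-1 subunit, went from 1316 to 2822, 2.14-fold higher in its 1 probe set. Its partner JUN had 0.42 in the brightest of 4 probe sets and up to 1.23 in another. SP1 had -0.69, with -0.68 in its other probe set. SP3 had 0.20 in its brightest probe set and from -0.03 to 0.74 over 3.

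**Figure D5:**
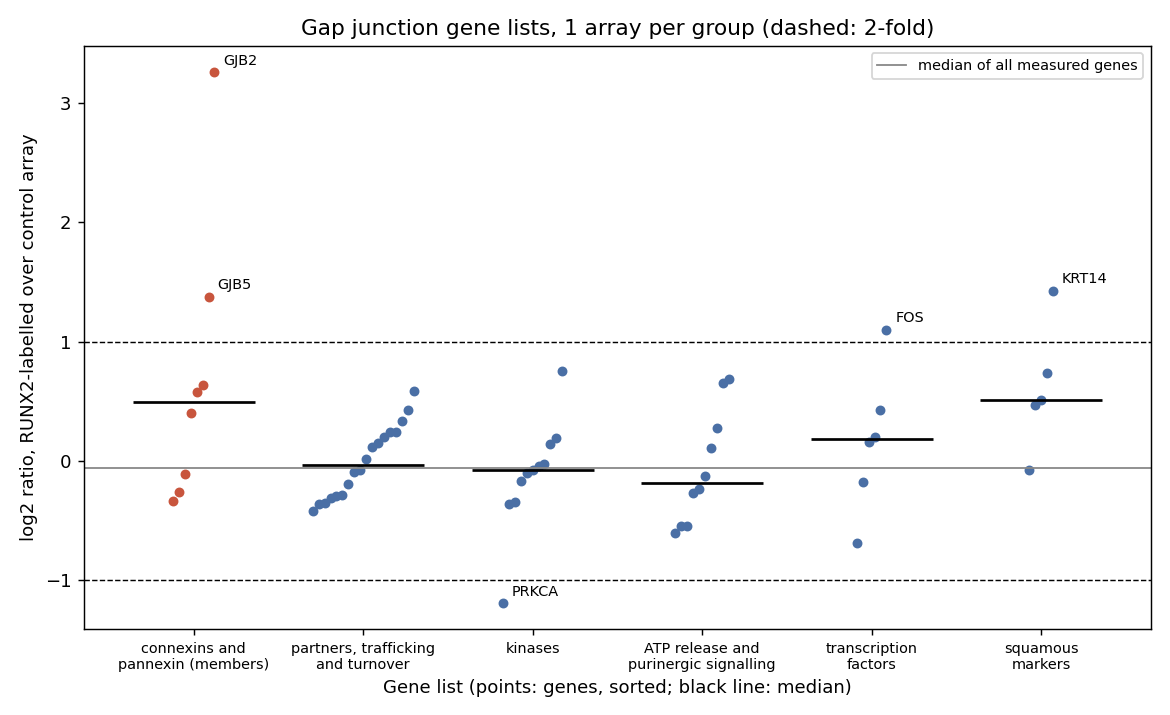
Log2 ratio of each measured gene (points) in the connexin and pannexin set (red) and in 5 lists (blue), with black lines at list medians, a grey line at the median of all measured genes and dashed lines at 2-fold. The genes past 2-fold are GJB2, GJB5, PRKCA on the lower side, FOS and KRT14.

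The squamous identity of the line was checked by its markers. KRT5, KRT14, KRT16, DSG3 and SFN were measured on both arrays, and no probe set was named for KRT6A, KRT17 or TP63 alone. The summed level of the measured markers was 22056 on the control array and 30826 on the RUNX2-labelled array. Summed levels follow the brightest probe sets, here those of KRT5 and SFN. Of the 5 log2 ratios, 4 lay above 0, beside 42.6% of all measured genes. KRT14, 2.69-fold higher, was the 1 past 2-fold, beside 1.41% of all measured genes upwards and 1.47% downwards. The part of these markers in the connexin values was not tested. Marker lists of fibroblasts, leukocytes, endothelium and simple epithelium had 0 measured members past 2-fold. With so few measured genes per list, a count of 0 is near those shares. Of 7 fibroblast markers COL1A1 was measured (1937 and 1553 in the brightest of 5 probe sets), of 5 leukocyte markers with a probe set LCP1 and CORO1A (sum 830 and 1150, CORO1A just under the floor on the control array), of 7 endothelial markers PECAM1 and VWF (sum 144 and 111), and of 6 simple epithelial markers all but KRT7 (sum 12737 and 15341). PTPRC, CD3E, CDH5, KDR, DCN and PDGFRB lay under the floor on both arrays.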

How the data were processed

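Gene expression was measured on 1 Affymetrix array per group, in Ca9-22 cells carrying the RUNX2 vector or its empty counterpart. Per the labels, biotin-labelled cRNA was made from 6 µg of total RNA. The deposited values are linear intensities for 54675 probe sets on each array, and the submitters' processing notes name MAS5 with no version or scaling target. How probes were summarised beyond that name is not given in the sources used here. Detection calls did not enter. Titles gave the groups.

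The 62 control probe sets were left out, scaling and floors were as given in the report, and genes were named from the platform annotation (41091 probe sets with 1 gene, 1801 with several, 11721 not named), with symbols updated by Entrez ID in a RefSeq table of GRCh38.p14. The members and lists were chosen with earlier results of these data known. Named were all probe sets of the 8 genes, RUNX2, other measured connexins and pannexins, list genes past 2-fold and up to 4 with the widest ratios. The rule also named the 3 genes with levels nearest to each gene past 2-fold, left out because levels of different probe sets are not comparable. TJP1, P2RX7, NT5E and chromosomal neighbours were added to the names with their values known. Alternatives were other scalings (none, equal medians, quantile, loess with span 0.4), other floors (25th and 75th percentile, none, an offset), other probe set rules, and thresholds of 1.5-fold and 4-fold. Scripts used Python 3.11.15, pandas 2.3.3, scipy 1.17.1 and statsmodels 0.14.6 and were tested on simulated arrays. The simulated noise was kept under 2-fold, so that test checks the code and not the 2-fold rule.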

Additional observations from a re-analysis of the deposited data

How the results depend on the processing

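Of the 8 genes, 2 were at least 2-fold higher under the main setting and between 1 and 3 under the alternatives. The count was 1 with the floor at the 75th percentile, where 5 of the 8 genes were measured, and 1 at a threshold of 4-fold. Under every scaling tried it was 2, and 0 of the 8 were at least 2-fold lower under every alternative tried. The median log2 ratio of the measured genes ran from 0.49 to 0.64 over the alternatives. Of all 12729 measured genes, 180 passed 2-fold upwards and 187 downwards. The floor at the 75th percentile gave 112 and 79 in place of these counts, but among only 8276 measured genes. Among 12729 genes, an offset instead of a floor gave 114 and 91. Other thresholds gave 734 and 873 at 1.5-fold and 22 and 11 at 4-fold, also among 12729 genes. GJB2 was at least 4.88-fold higher with the floor at the 75th percentile, a bound, had a log2 ratio of 2.70 with an offset, and was up to 10.2-fold higher under the other scalings. GJA3 changed sign, to 0.20 with the mean over probe sets and 0.50 without the _x_at and _s_at probe sets. RUNX2 was -2.01 in its brightest probe set and 2.06 and 1.79 in the others measured, taken singly after seeing the data. The causes were not tested. No paired analysis was possible because each group holds 1 array.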
